A study of Mus musculus with 9 samples.

Results

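Transcripts of 37 immediate early and growth response genes were followed in a mouse hepatoma line, Hepa 1 WT, that had FICZ, tryptamine or neither on it for 6 h, with 3 libraries in each group. The genes were chosen by name, and 36 of the 37 matched a symbol of the deposited tables, which pair 28932 genes with an identifier. The 37th, Junb, is listed there only in joint entries with its neighbour Prdx2 and was read from the RefSeq transcript of Junb. Total RNA of the FICZ group came from cells given 10 nM of FICZ, which forms from tryptophan under light and is a ligand of AhR, the aryl hydrocarbon receptor. The tryptamine group received 50 uM of tryptamine, a monoamine made from tryptophan, which the labels abbreviate to TA. The control group is called untreated in its own label, whereas the treatment text names a vehicle. All groups are the same cells, named Hepa 1 WT by source and HC1C by cell line. Nothing says whether the libraries of a group are separate cultures, so p-values measure the spread between these libraries, which may be technical.

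Immediate early genes are the first genes a cell switches on when growth factors, stress or serum reach it, and they need no new protein synthesis for this. Signals through the ERK, JNK and p38 kinases act on factors already bound at their promoters, among them serum response factor, which binds the CArG box, and CREB, which binds the cAMP response element. Their products include the Fos and Jun proteins, which pair to form the transcription factor AP-1, the Egr, Klf and Myc factors, and inhibitors such as the Dusp and Sprouty proteins that shut the kinases off again. Most of these transcripts are short-lived, so a single late time shows what is left of a pulse or what is held at a steady level.

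The upstream sequences of a few of these genes are printed with the letters of some known binding sites marked. Sites with other letters, or outside the printed bases, are not marked. RefSeq promoters on GRCm38.p6, each from 250 bases before to 50 bases after a start, were at hand for 27 of the 37 genes, with 33 starts. Capitals mark any match, on either strand, to the AhR-ARNT core GCGTG, the AP-1 site TGACTCA, the cAMP response element TGACGTCA or the CArG box. Fos, on chr12:85473640-85473939 of the plus strand, is shown as the founding immediate early gene. Klf9, on chr19:23140976-23141275 of the plus strand, and Mafk, on chr5:139791286-139791585 of the plus strand, are shown because all of their FICZ libraries lay above all control libraries. Fosl1, Egr1 and Spry4 met the same condition, but no promoter of theirs was at hand. Zfp36, on chr7:28379179-28379478 of the minus strand, is shown for its CArG box.
Fos: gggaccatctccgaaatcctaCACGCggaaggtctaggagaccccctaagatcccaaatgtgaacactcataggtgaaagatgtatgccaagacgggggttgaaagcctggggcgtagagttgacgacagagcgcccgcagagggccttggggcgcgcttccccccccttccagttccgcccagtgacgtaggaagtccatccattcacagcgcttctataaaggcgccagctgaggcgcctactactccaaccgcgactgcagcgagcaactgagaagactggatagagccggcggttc
Klf9: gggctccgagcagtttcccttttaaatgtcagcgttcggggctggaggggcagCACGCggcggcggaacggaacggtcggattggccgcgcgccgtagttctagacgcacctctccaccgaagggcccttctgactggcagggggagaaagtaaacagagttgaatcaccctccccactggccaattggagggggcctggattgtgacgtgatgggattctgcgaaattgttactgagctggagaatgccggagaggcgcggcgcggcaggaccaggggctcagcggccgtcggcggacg
Mafk: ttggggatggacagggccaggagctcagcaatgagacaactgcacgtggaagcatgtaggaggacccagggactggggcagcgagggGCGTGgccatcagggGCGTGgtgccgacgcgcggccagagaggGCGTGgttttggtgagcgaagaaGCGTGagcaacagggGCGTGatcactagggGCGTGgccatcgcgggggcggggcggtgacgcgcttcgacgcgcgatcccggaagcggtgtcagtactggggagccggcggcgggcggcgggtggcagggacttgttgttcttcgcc
Zfp36: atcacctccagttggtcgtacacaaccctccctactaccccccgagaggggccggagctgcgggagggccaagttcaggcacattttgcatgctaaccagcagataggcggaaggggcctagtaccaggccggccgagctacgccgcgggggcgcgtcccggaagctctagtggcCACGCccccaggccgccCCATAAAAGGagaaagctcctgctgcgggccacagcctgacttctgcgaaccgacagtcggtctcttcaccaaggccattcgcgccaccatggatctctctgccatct

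The Mafk promoter held 6 copies of GCGTG, at -163, -148, -120, -97, -82 and -67 from the start, all on the strand printed. Fos and Klf9 each held 1, printed as its reverse complement CACGC, at -229 and -197. Zfp36 held 1, also as CACGC, at -75 and a CArG box at -58. Of the genes not printed, Maff held 3 copies of GCGTG at 1 start, and Atf3, Dusp5, Junb and Nr4a1 held 2 each. Over the whole set, GCGTG occurred at 14 of 33 starts (42.4%), against 32.4% of 32817 mouse promoters of the same length. The CArG box occurred at 7 of 33 starts (21.2%), against 1.63% of all promoters, in Dusp5, Egr2, Srf and Zfp36, with 4 of the 7 starts belonging to Egr2. Some of these Egr2 windows overlap and share a site, which is thus counted more than once. By gene, the box occurred in 4 of 27. The cAMP response element occurred at 3 starts (9.09%, against 1.79%), those of Areg, Dusp1 and Maff, and TGACTCA at 1 (3.03%, against 5.2%), that of Plaur. A match describes these letters only and is no evidence of a bound factor.

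None of the genes passed the adjusted threshold with FICZ or with tryptamine in the fit to all 9 libraries, while the AhR target Cyp1a1 rose in the same cells. Of the 37 genes, 33 passed the filter on low counts and were tested among 12374 genes with edgeR's quasi-likelihood test, and "passed" below means a Benjamini-Hochberg adjusted p under 0.05 over all of these. With FICZ, 0 of the 33 rose and 0 fell, where 0.113% of all genes passed. Under tryptamine the counts were 0 and 0, where 0.00808% of all genes passed, and between FICZ and tryptamine they were 0 and 0, where 0% passed. At an unadjusted p under 0.05, 4 of the 33 were higher and 0 lower with FICZ (3.52% and 4.6% of all genes), and 2 were higher and 0 lower with tryptamine (2.18% and 2.97%). Between FICZ and tryptamine there were 0 higher and 0 lower (0.703% and 1.03%). DESeq2's Wald test also passed 0 of the 33 in each of the 3 comparisons, where it passed 0.436% of all genes for FICZ against control, 0.097% for tryptamine against control and 0.0808% for FICZ against tryptamine. Limma's voom with quality weights passed Fosl1 and Ier3 with FICZ, as given with those genes. Fewer cells of a kind and less RNA per cell cannot be told apart in these bulk libraries. The check that the treatments acted is Cyp1a1, at 1022, 1035 and 951 CPM in the FICZ libraries and 674, 682 and 754 CPM in the tryptamine libraries, against 63.9, 55.4 and 58.3 CPM in the control libraries. All treated libraries lay far above the controls, by 4.08 ± 0.10 (SE, adjusted p of 5.03e-09) for FICZ and by 3.57 ± 0.099 (SE, adjusted p of 1.66e-08) for tryptamine on the log2 scale.

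A control library, replicate 3, lay apart from the other 8, which bears on each comparison with control. Its log CPM correlated with theirs at 0.954 to 0.960 across genes, against at least 0.987 among the other 8, and the biological coefficient of variation over all genes was 0.156 in the fit that holds it and 0.0748 in the fit that does not. Total counts over genes ran from 11594795 in that library to 16715843. Among the 33 genes it was the highest of the 9 libraries in 10 and the lowest in 8, and among 12110 genes with a mean of 10 counts it was highest in 34.7% and lowest in 35.7%. All 7 members read from a transcript of 1 exon (Jun, Junb, Jund, Ier2, Ier5, Zfp36 and Rhob) were higher in it than in the mean of the other controls, as were 12 of the 26 with more exons. Over all genes of 2000 to 4000 nt the median log2 difference of that library from the other controls was 0.10 for 206 genes of 1 exon and 0.03 for 4102 with more. It also moved with transcript length, from a median log2 difference to the other 8 libraries of 0.67 in the shortest length class to -0.84 in the longest. The part of RNA quality in the results was not tested. Results are therefore also given without it. The cell type was checked too. Alb, Afp, Foxa2, Krt8 and Krt18 were measured among 9 hepatocyte and hepatoma markers, whereas Ttr, Apoa1 and Hnf4a were listed at 0 in all libraries and Apoh had at most 4 counts. The summed level of that list was 3967 to 4142 CPM with FICZ and 4239 to 4422 CPM with tryptamine, against 4460 to 6299 CPM in control. All FICZ libraries lay below all tryptamine libraries in this sum, and both lay below all controls. Most of the sum came from the keratins Krt8 and Krt18, with means of 1772 and 1896 CPM in the FICZ group. Of the listed markers, Krt18 alone kept this order in every library. In Alb and Afp the FICZ and tryptamine libraries overlapped. Foxa2 averaged 33.8 CPM with FICZ and 36.6 CPM with tryptamine, against 32.2 CPM in control. Of 7 fibroblast and stellate markers 5 were measured, and their summed level was 1608 to 1731 CPM with FICZ and 1606 to 1747 CPM with tryptamine, against 1375 to 1677 CPM in control. Most of this sum came from Col1a1, with a mean of 1250 CPM in the FICZ group, and single markers went opposite ways. Col3a1 was at 65.6 to 67.1 CPM with FICZ, against 36.2 to 52.1 CPM in control. Dcn was at 309 to 316 CPM with FICZ, against 359 to 423 CPM in control. In Col1a1, Pdgfrb and Acta2 the FICZ and control libraries overlapped. Of 6 blood and endothelial markers 2 were measured and Hbb-b1 and Cdh5 were at 0, with sums of 15.3 to 18.5 CPM with FICZ and 14.0 to 19.0 CPM with tryptamine, against 14.7 to 20.2 CPM in control. The part of other cell types in the results was not tested.

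**Figure D1:**
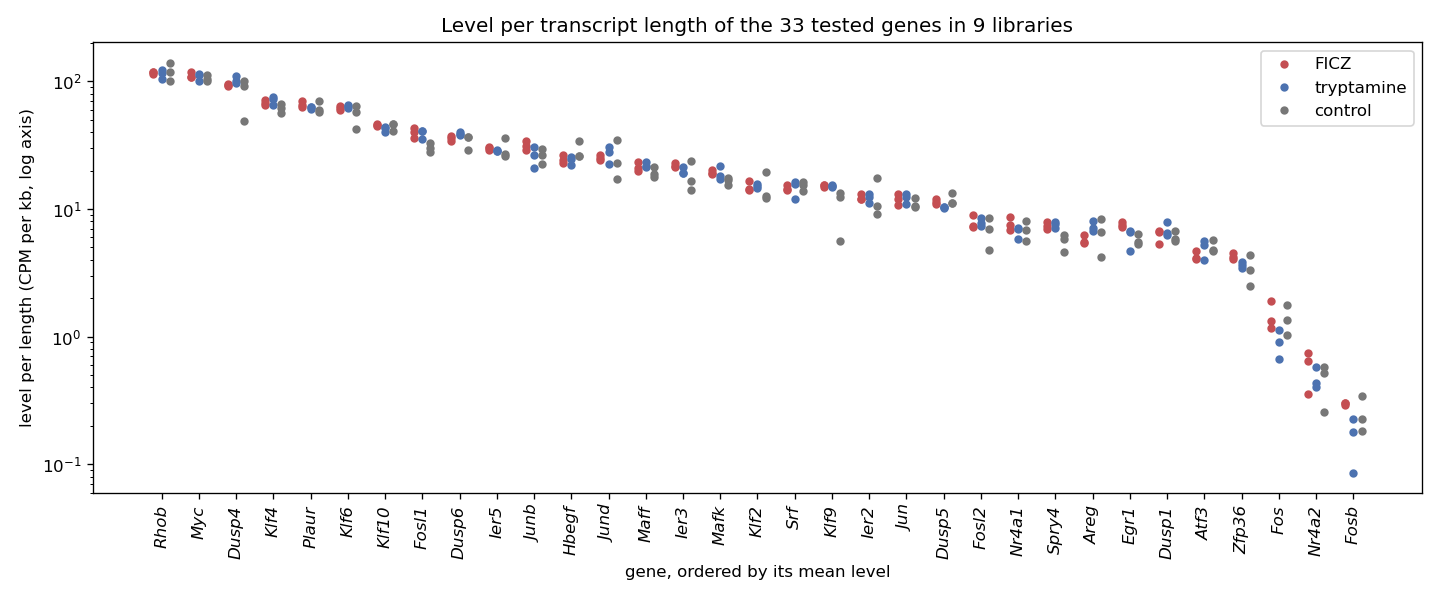
Level per transcript length (CPM per kb, logarithmic axis) of the 33 tested genes in each of 9 libraries, ordered by mean level, with FICZ, tryptamine and control libraries drawn side by side. Rhob and Myc stand highest with means of 117 and 109 CPM per kb, and Fos, Nr4a2 and Fosb lowest with 1.25, 0.501 and 0.237.

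Levels per length differed between the genes by far more than between the groups. CPM is the usual count scaled to library size, here after TMM adjustment, and CPM per kb divides this by the transcript's length. Rhob, a small GTPase of the cytoskeleton and of vesicle traffic, averaged 117 CPM per kb over the 9 libraries. Myc, the factor that drives growth and ribosome production, averaged 109, Dusp4 92.2, Klf4 67.2, Plaur 63.5 and Klf6 60.1 CPM per kb. Ier5 averaged 29.3, Junb 27.9, Ier2 12.3 and Jun 11.7 CPM per kb, with Ier3 between Junb and Ier2. Lower still were Egr1 at 6.42, Dusp1 at 6.39, Atf3 at 4.76, Zfp36 at 3.78 and Fos at 1.25 CPM per kb. Egr2 had 34 counts in all 9 libraries and Ereg 2, too few to test. Egr3 and Spry2 had 0 counts in every library, which allows up to 0.179 to 0.256 CPM in a library, a limit that covers counting error only.

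Among the Fos proteins, which pair with Jun proteins to bind DNA, Fosl1 was the main transcript in all libraries. It made 76.7 to 83.0% of the family's level per length, Fosl2 13.1 to 19.7%, Fos 1.53 to 4.86% and Fosb 0.194 to 0.933%. The share of Fosl1 was 80.4 ± 2.74% with FICZ and 81.5 ± 1.22% with tryptamine, against 78.4 ± 2.63% in control (SD, n = 3 each). Fosl1, which encodes Fra-1, stood at 75.1, 79.7 and 66.5 CPM in the FICZ libraries and 75.6, 76.7 and 66.3 CPM in the tryptamine libraries, against 52.4, 61.4 and 55.5 CPM in the control libraries. All 6 treated libraries lay above all 3 controls. Its log2 change was 0.39 ± 0.11 (SE, unadjusted p = 0.0063, adjusted p of 0.574) with FICZ and 0.37 ± 0.11 (SE, unadjusted p = 0.00834, adjusted p of 0.741) with tryptamine, and neither passed. The 2 comparisons share the same controls. Without control replicate 3 the value was 0.38 ± 0.10 (SE, adjusted p of 0.087) for FICZ and 0.35 ± 0.10 (SE, adjusted p of 0.344) for tryptamine. Its 3 transcripts with a mean of at least 20 counts each gave a ratio of FICZ to control of 0.39 on the log2 scale. By limma's voom with quality weights, which gave control replicate 3 a weight of 0.0783 and no other library less than 0.761, Fosl1 rose with FICZ (log2 0.39, adjusted p = 0.0426). In the authors' deposited table its log2 fold change with FICZ was 0.33 with an adjusted p of 0.0815.

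Fos itself, the partner that gave AP-1 its first known form, stood at 3.98, 2.80 and 2.46 CPM in the FICZ libraries and 1.90, 2.39 and 1.42 CPM in the tryptamine libraries, against 2.16, 2.82 and 3.75 CPM in the control libraries. The 3 FICZ libraries lay above the 3 tryptamine libraries, and both groups overlapped the controls, of which replicate 3 was the highest. The log2 change was 0.09 (95% interval -0.60 to 0.78, adjusted p of 0.917) with FICZ and -0.61 (95% interval -1.33 to 0.11, adjusted p of 0.741) with tryptamine, and the difference of FICZ from tryptamine was 0.70 (95% interval -0.02 to 1.41, adjusted p of 1). The counts of Fos were 22 to 56 in a library. Its 3 entries with a mean of at least 20 counts gave ratios of FICZ to control from -0.46 to 0.09 on the log2 scale with all controls and from -0.08 to 0.33 without control replicate 3. A shorter Fos entry of 834 nt and 4 exons, below that mean, had 30, 31 and 23 counts in the FICZ libraries and 20, 16 and 13 in the tryptamine libraries, against 12, 11 and 9 in the control libraries. In that entry, singled out after its counts were seen and not tested, the unscaled counts of the 3 groups did not overlap. How many entries of all genes do the same was not counted. Fos entries of 631 and 795 nt, also with few counts, kept the same order. The entry of 1487 nt did not, with 33, 26 and 18 counts in the FICZ libraries and 12, 18 and 9 in the tryptamine libraries, against 24, 29 and 40 in the control libraries. The doses of the 2 compounds differ, 10 nM and 50 uM, so their values stand side by side without a comparison of potency. Fosb, with 5 to 19 counts in a library, ranged from 1.09 to 1.14 CPM with FICZ and from 0.323 to 0.850 CPM with tryptamine, against 0.688 to 1.29 CPM in control. Fosl2, which encodes Fra-2, averaged 45.8 ± 5.54 CPM with FICZ and 45.9 ± 3.36 CPM with tryptamine, against 39.6 ± 10.9 CPM in control (SD, n = 3 each), with control replicate 3 lowest.

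Of the Jun proteins, which can pair with each other or with Fos proteins, Junb and Jund made most of the level per length. Junb made 44.7 to 46.5% of the family with FICZ and 38.8 to 41.5% with tryptamine, against 38.7 to 45.0% in control. Jund made 34.1 to 45.5% in a library, and Jun the remaining 15.8 to 20.9%. Junb, often an opponent of Jun in growth control, stood at 62.2, 56.2 and 52.5 CPM in the FICZ libraries and 47.5, 54.9 and 38.2 CPM in the tryptamine libraries, against 41.0, 48.1 and 53.5 CPM in the control libraries. The FICZ libraries overlapped the tryptamine libraries and control replicate 3 and lay above control replicates 1 and 2. Its log2 change with FICZ was 0.26 ± 0.15 (SE, adjusted p of 0.605), and 0.35 ± 0.12 (SE, adjusted p of 0.265) without control replicate 3. FICZ differed from tryptamine by 0.28 (95% interval -0.05 to 0.61, adjusted p of 1), and by 0.29 ± 0.11 (SE, adjusted p of 0.648) without that control. Leaving out each library in turn gave 0.15 to 0.41 for the difference of Junb between FICZ and tryptamine, the lowest without tryptamine replicate 3, and 0.16 to 0.35 for its change with FICZ, the lowest without control replicate 1. Because the joint entry names Prdx2 too, reads from that neighbour cannot be told apart.

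Jund, the Jun protein that cells keep at a steady level, stood at 76.7, 70.3 and 72.7 CPM in the FICZ libraries and 80.7, 87.4 and 64.3 CPM in the tryptamine libraries, against 49.4, 65.5 and 100.1 CPM in the control libraries. Control replicate 3 was the highest of all 9 libraries and control replicate 1 the lowest, so both treated groups overlapped the controls. The log2 change with tryptamine was 0.11 ± 0.22 (SE, adjusted p of 0.849) in the fit to 9 libraries and 0.43 ± 0.12 (SE, adjusted p of 0.288) without control replicate 3, and with FICZ it was 0.03 ± 0.22 (SE, adjusted p of 0.956) in the fit to 9 libraries and 0.35 ± 0.12 (SE, adjusted p of 0.239) without that control. Jun averaged 37.9 ± 3.69 CPM with FICZ and 39.0 ± 3.56 CPM with tryptamine, against 35.2 ± 2.95 CPM in control (SD, n = 3 each). Atf3, a stress-induced factor that pairs with Jun proteins, averaged 8.48 ± 0.706 CPM with FICZ and 9.73 ± 1.72 CPM with tryptamine, against 10.0 ± 1.09 CPM in control (SD, n = 3 each). Neither passed in any comparison.

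**Figure D2:**
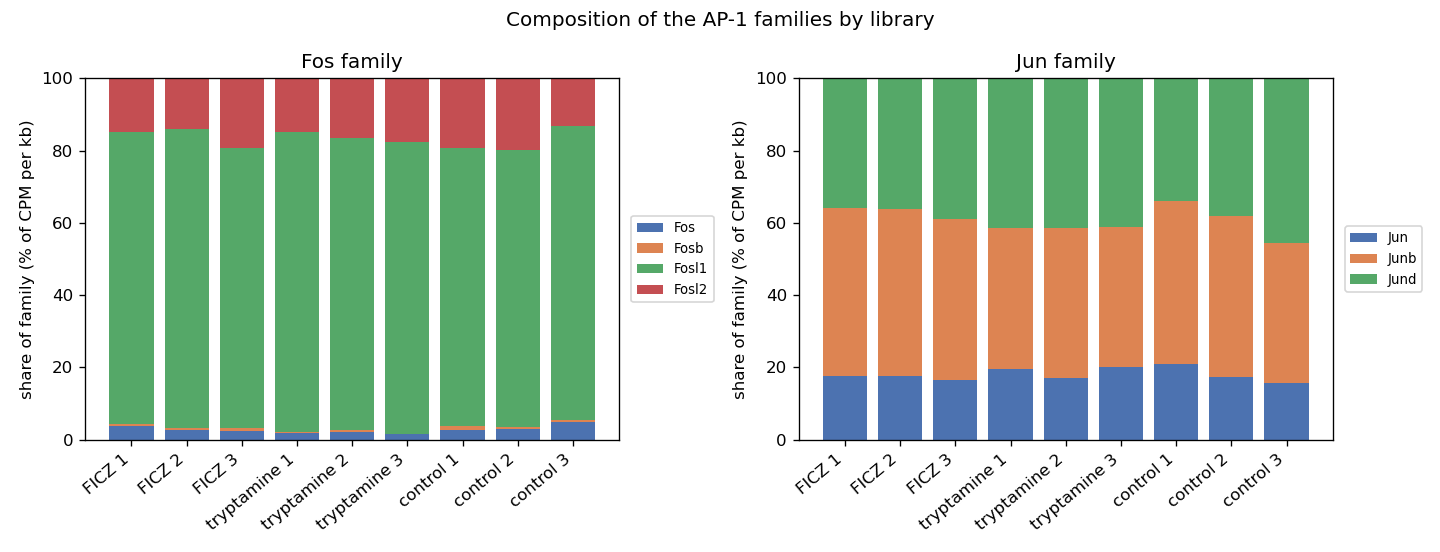
Share of each gene in the summed level per length (% of CPM per kb) of the Fos family (left) and the Jun family (right), 1 stacked bar a library, FICZ then tryptamine then control. Fosl1 makes 76.7 to 83.0% of the Fos family in every library, and Junb makes 38.7 to 46.5% of the Jun family.

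The small Maf proteins have no activation domain of their own and act as partners of NRF2 and related factors. Maff stood at 45.0, 40.8 and 38.5 CPM in the FICZ libraries and 45.0, 41.2 and 42.3 CPM in the tryptamine libraries, against 34.6, 36.5 and 41.4 CPM in the control libraries. Its FICZ and tryptamine libraries overlapped the controls through control replicate 3. Its log2 change was 0.15 ± 0.11 (SE, adjusted p of 0.629) with FICZ and 0.19 ± 0.11 (SE, adjusted p of 0.741) with tryptamine, and without that library 0.22 ± 0.10 (SE, adjusted p of 0.48) with FICZ and 0.27 ± 0.10 (SE, adjusted p of 0.685) with tryptamine. Mafk stood at 53.7, 57.4 and 53.3 CPM in the FICZ libraries and 51.2, 61.1 and 48.9 CPM in the tryptamine libraries, against 47.6, 49.3 and 43.3 CPM in the control libraries. All FICZ libraries lay above all controls, while the tryptamine libraries overlapped them. The log2 change of Mafk was 0.23 ± 0.12 (SE, adjusted p of 0.601) with FICZ and 0.20 ± 0.12 (SE, adjusted p of 0.741) with tryptamine. Without control replicate 3 it was 0.18 ± 0.10 (SE, adjusted p of 0.598) with FICZ and 0.14 ± 0.10 (SE, adjusted p of 0.885) with tryptamine. None of these passed, and with all 9 libraries FICZ differed from tryptamine by 0.03 (95% interval -0.22 to 0.28).

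Egr1, a zinc finger factor that ERK signalling induces through serum response factor, stood at 24.3, 23.0 and 22.1 CPM in the FICZ libraries and 20.3, 20.6 and 14.5 CPM in the tryptamine libraries, against 16.8, 19.4 and 16.4 CPM in the control libraries. The 3 FICZ libraries lay above all 3 control and all 3 tryptamine libraries, and the tryptamine libraries overlapped the controls. The log2 change was 0.40 ± 0.15 (SE, unadjusted p = 0.0251, adjusted p of 0.601) with FICZ and 0.07 (95% interval -0.27 to 0.41, adjusted p of 0.867) with tryptamine, and FICZ differed from tryptamine by 0.33 (95% interval -0.01 to 0.66, adjusted p of 1). None of these passed. Leaving out each library in turn gave 0.18 to 0.41 for the difference between FICZ and tryptamine, the lowest without tryptamine replicate 3. Without control replicate 3 the change with FICZ was 0.35 ± 0.15 (SE, adjusted p of 0.4) and the difference between treatments 0.33 ± 0.13 (SE, adjusted p of 0.694). Over its 5 transcripts with a mean of at least 20 counts the ratio of FICZ to control ran from 0.34 to 0.46 on the log2 scale. Among the orphan nuclear receptors that stimulated cells make early, Nr4a1 averaged 19.0 ± 2.39 CPM with FICZ and 16.4 ± 1.77 CPM with tryptamine, against 17.0 ± 3.09 CPM in control (SD, n = 3 each), and Nr4a2, with 13 to 43 counts in a library, averaged 1.99 ± 0.698 CPM with FICZ and 1.62 ± 0.313 CPM with tryptamine, against 1.54 ± 0.582 CPM in control (SD, n = 3 each).

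**Figure D3:**
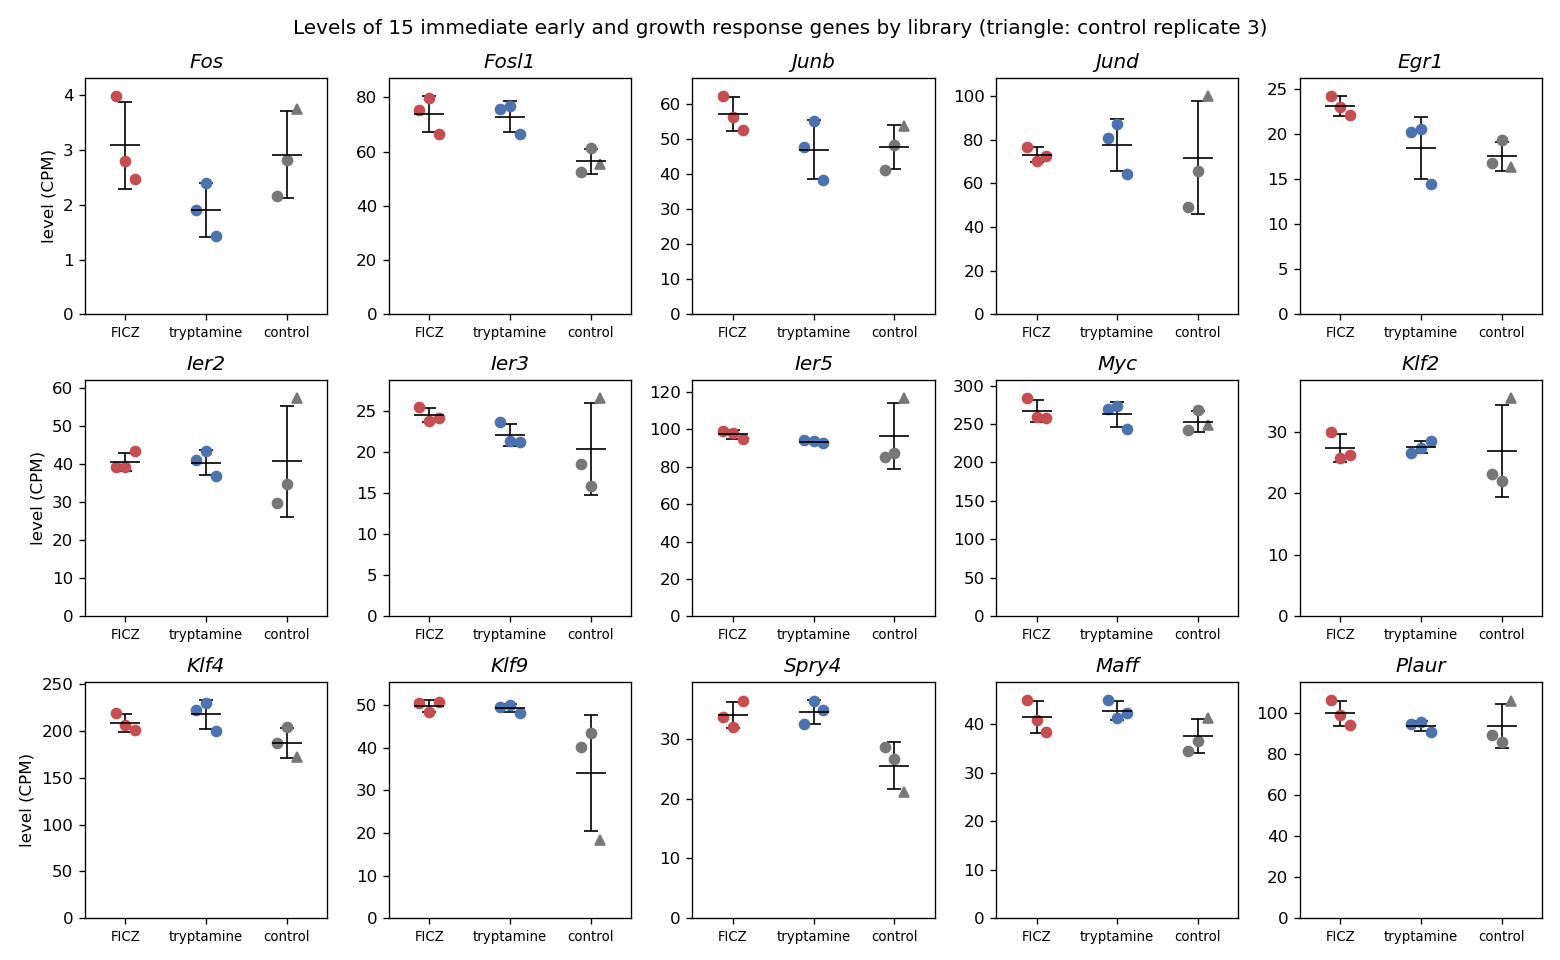
Levels (CPM, axes from 0) of 15 genes, which are Fos, Egr1, Myc and those with an unadjusted p under 0.05 in a comparison with or without control replicate 3, with FICZ left, tryptamine in the middle and control right, points for libraries, a triangle for control replicate 3 and bars for mean ± SD (n = 3). For Jund, Ier2, Ier3, Ier5 and Klf2 the triangle is the highest of the 9 points, and for Klf4, Klf9 and Spry4 it is the lowest.

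Myc, introduced above, was abundant and its groups overlapped. It stood at 284, 259.6 and 257 CPM in the FICZ libraries and 269.6, 274 and 244 CPM in the tryptamine libraries, against 242, 268 and 249 CPM in the control libraries. The log2 change was 0.08 (95% interval -0.12 to 0.28, adjusted p of 0.731) with FICZ and 0.05 (95% interval -0.15 to 0.25, adjusted p of 0.839) with tryptamine, and the treatments differed by 0.02 (95% interval -0.18 to 0.23, adjusted p of 1). The 3 intervals for Myc lie between -0.18 and 0.28. Srf, the serum response factor, averaged 60.1 ± 2.95 CPM with FICZ and 60.0 ± 9.65 CPM with tryptamine, against 61.9 ± 5.20 CPM in control (SD, n = 3 each).

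The Krüppel-like factors are zinc finger proteins that respond to growth signals and hormones. Klf9, which glucocorticoids and thyroid hormone also induce, stood at 50.6, 48.3 and 50.7 CPM in the FICZ libraries and 49.6, 50.0 and 48.1 CPM in the tryptamine libraries, against 40.2, 43.5 and 18.4 CPM in the control libraries. All 6 treated libraries lay above all 3 controls, but control replicate 3 lay far below the other controls. The log2 change was 0.55 ± 0.24 (SE, unadjusted p = 0.0461, adjusted p of 0.601) with FICZ and 0.53 ± 0.24 (SE, unadjusted p = 0.0527, adjusted p of 0.741) with tryptamine. Without that library it was 0.25 ± 0.095 (SE, adjusted p of 0.323) with FICZ and 0.23 ± 0.096 (SE, adjusted p of 0.725) with tryptamine. Klf9 is the 1 member with an adjusted p under 0.05 in the authors' deposited table, at 0.0159 with a log2 fold change of 0.52 for FICZ over control. A shorter entry of Klf9, of 1007 nt and 1 exon, showed the opposite deviation of that library from the other controls, at 0.68 on the log2 scale, against -1.18 for the entry of 3263 nt. Its ratio of FICZ to control was -0.12 on the log2 scale with all controls and 0.14 without control replicate 3, against 0.55 and 0.25 for the longer entry.

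Klf4, a factor of epithelial identity, stood at 219, 206 and 201 CPM in the FICZ libraries and 222, 230.0 and 200.2 CPM in the tryptamine libraries, against 187, 204 and 172 CPM in the control libraries. The treated libraries overlapped the controls only through control replicate 2. With tryptamine its log2 change was 0.21 ± 0.099 (SE, adjusted p of 0.741), and 0.15 ± 0.073 (SE, adjusted p of 0.757) without control replicate 3. Klf2 stood at 29.9, 25.8 and 26.2 CPM in the FICZ libraries and 26.6, 27.3 and 28.5 CPM in the tryptamine libraries, against 23.1, 22.0 and 35.5 CPM in the control libraries, and control replicate 3 was the highest of the 9 libraries. Its log2 change was 0.02 ± 0.17 (SE, adjusted p of 0.959) with FICZ and 0.04 ± 0.17 (SE, adjusted p of 0.945) with tryptamine, and without that control 0.27 ± 0.12 (SE, adjusted p of 0.428) with FICZ and 0.28 ± 0.12 (SE, adjusted p of 0.735) with tryptamine. Klf6 averaged 261 ± 9.38 CPM with FICZ and 269 ± 8.51 CPM with tryptamine, against 229.6 ± 47.5 CPM in control (SD, n = 3 each), and Klf10, a factor induced by TGF-beta, averaged 139.7 ± 2.40 CPM with FICZ and 129 ± 5.83 CPM with tryptamine, against 135 ± 9.85 CPM in control (SD, n = 3 each). In Klf6 too, control replicate 3 lay lowest.

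The small proteins Ier2, Ier3 and Ier5 also had control replicate 3 as the highest of the 9 libraries. Ier3, an inhibitor of cell death, stood at 25.5, 23.8 and 24.2 CPM in the FICZ libraries and 23.7, 21.4 and 21.3 CPM in the tryptamine libraries, against 18.6, 15.8 and 26.6 CPM in the control libraries. The FICZ libraries lay above the tryptamine libraries and above control replicates 1 and 2, and below control replicate 3. The log2 change with FICZ was 0.27 ± 0.17 (SE, adjusted p of 0.605) with all libraries and 0.51 ± 0.13 (SE, adjusted p of 0.0612) without control replicate 3, and with tryptamine 0.13 ± 0.17 (SE, adjusted p of 0.799) and 0.36 ± 0.13 (SE, adjusted p of 0.657). By limma's voom with quality weights Ier3 rose with FICZ (log2 0.50, adjusted p = 0.0478), and with Fosl1 it is 1 of 2 members that this test passed, where 0.638% of all genes passed upward and 0.921% in either direction. It passed 0 members for tryptamine against control, where 0.154% of all genes passed, and 0 for FICZ against tryptamine, where 0.145% did. Ier2 stood at 39.3, 39.2 and 43.4 CPM in the FICZ libraries and 41.0, 43.5 and 36.9 CPM in the tryptamine libraries, against 29.9, 34.9 and 57.5 CPM in the control libraries. Its log2 change was -0.0015 ± 0.21 (SE, adjusted p of 0.998) with FICZ and -0.01 ± 0.21 (SE, adjusted p of 0.99) with tryptamine, and without control replicate 3 0.33 ± 0.11 (SE, adjusted p of 0.258) with FICZ and 0.32 ± 0.11 (SE, adjusted p of 0.657) with tryptamine. Ier5 stood at 99.3, 98.2 and 94.7 CPM in the FICZ libraries and 94.2, 93.6 and 92.6 CPM in the tryptamine libraries, against 85.5, 87.5 and 117 CPM in the control libraries, and its log2 change with FICZ was 0.01 ± 0.12 (SE, adjusted p of 0.97), and 0.17 ± 0.077 (SE, adjusted p of 0.443) without that control.

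Zfp36, which binds AU-rich elements and speeds the decay of other early transcripts, averaged 10.5 ± 0.509 CPM with FICZ and 9.02 ± 0.477 CPM with tryptamine, against 8.41 ± 2.33 CPM in control (SD, n = 3 each). Its 3 FICZ libraries lay above its 3 tryptamine libraries. Rhob averaged 273 ± 4.49 CPM with FICZ and 268 ± 21.5 CPM with tryptamine, against 281 ± 45.5 CPM in control (SD, n = 3 each), with control replicate 3 highest.

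Of the inhibitors of ERK signalling, 5 were tested and 0 passed in each comparison. Dusp4, Dusp5 and Dusp6 are phosphatases that remove the activating phosphates of ERK, and Dusp1 acts more on p38 and JNK. Spry4 acts upstream, between receptors and Raf. Spry4 stood at 33.6, 32.0 and 36.2 CPM in the FICZ libraries and 32.4, 36.3 and 34.8 CPM in the tryptamine libraries, against 28.7, 26.6 and 21.1 CPM in the control libraries. All 6 treated libraries lay above all 3 controls. The log2 change was 0.41 ± 0.13 (SE, unadjusted p = 0.0102, adjusted p of 0.601) with FICZ and 0.44 ± 0.13 (SE, unadjusted p = 0.00748, adjusted p of 0.741) with tryptamine, and without control replicate 3 0.29 ± 0.11 (SE, adjusted p of 0.322) with FICZ and 0.31 ± 0.11 (SE, adjusted p of 0.657) with tryptamine. Over its 5 transcripts with a mean of at least 20 counts the ratio of FICZ to control ran from 0.33 to 0.78 on the log2 scale with all controls and from 0.25 to 0.40 without that library.

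Dusp6, a close readout of ERK activity, stood at 101, 103 and 95.4 CPM in the FICZ libraries and 107, 111 and 106 CPM in the tryptamine libraries, against 103, 102 and 80.9 CPM in the control libraries. The tryptamine libraries lay above all FICZ and all control libraries. The log2 change of Dusp6 with tryptamine was 0.18 ± 0.11 (SE, adjusted p of 0.741), and 0.07 ± 0.076 (SE, adjusted p of 0.949) without control replicate 3. FICZ differed from tryptamine by -0.11 (95% interval -0.36 to 0.13), and none of these passed. Dusp4 stood at 263, 258 and 250.0 CPM in the FICZ libraries and 274, 300.4 and 265 CPM in the tryptamine libraries, against 253, 276 and 134 CPM in the control libraries, and the FICZ libraries lay below the tryptamine libraries. Control replicate 3 was the lowest of the 9 libraries. Across the 6 Dusp4 entries with a mean of at least 20 counts its difference from the other controls ran from -1.30 to 0.53 on the log2 scale, and the entry above them was the one with 1 exon. Dusp5 stood at 26.8, 29.8 and 27.8 CPM in the FICZ libraries and 25.6, 25.4 and 25.0 CPM in the tryptamine libraries, against 27.5, 27.4 and 32.9 CPM in the control libraries, with all tryptamine libraries below all others. The log2 change of Dusp5 with tryptamine was -0.20 ± 0.12 (SE, adjusted p of 0.741). Without control replicate 3, here the highest library, it was -0.12 ± 0.11 (SE, adjusted p of 0.939). Dusp1 averaged 14.4 ± 1.75 CPM with FICZ and 15.9 ± 2.06 CPM with tryptamine, against 14.0 ± 1.36 CPM in control (SD, n = 3 each).

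Ligands of the EGF receptor, which early genes supply as a second round of signal, were measured for Hbegf and Areg. Hbegf stood at 63.0, 54.1 and 57.3 CPM in the FICZ libraries and 52.3, 60.9 and 58.3 CPM in the tryptamine libraries, against 62.3, 62.0 and 81.0 CPM in the control libraries. All tryptamine libraries lay below all controls, and the FICZ libraries overlapped control replicates 1 and 2. The log2 change of Hbegf with tryptamine was -0.26 ± 0.13 (SE, adjusted p of 0.741). Control replicate 3 was the highest of the 9 libraries, and without it the change was -0.12 ± 0.095 (SE, adjusted p of 0.892). Areg averaged 6.93 ± 0.569 CPM with FICZ and 8.79 ± 0.900 CPM with tryptamine, against 7.68 ± 2.46 CPM in control (SD, n = 3 each). Plaur, the receptor that holds urokinase at the cell surface, stood at 106, 98.7 and 94.1 CPM in the FICZ libraries and 94.3, 95.5 and 90.7 CPM in the tryptamine libraries, against 88.9, 85.8 and 106 CPM in the control libraries. Its log2 change with FICZ was 0.09 ± 0.11 (SE, adjusted p of 0.716), and 0.19 ± 0.080 (SE, adjusted p of 0.402) without control replicate 3.

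As a set the genes lay slightly above 0 with both treatments. The median log2 change over the 33 was 0.11 with FICZ, with 26 above 0, beside a median of -0.01 and 49.1% above 0 over all genes tested. It was 0.08 with tryptamine, with 21 above 0, beside 0.0040 and 50.5%. Without control replicate 1 the median with tryptamine was -0.037. Between FICZ and tryptamine the median was 0.02, with 20 of 33 above 0, beside -0.0031 and 48.8%. Without control replicate 3 the median was 0.18 with FICZ, with 26 above 0 (50% of all genes), and 0.09 with tryptamine, with 27 above 0 (49.8%). For FICZ over tryptamine it was 0.02, with 21 above 0 (50.2%). In that fit 0 of the 33 passed in each comparison, where 0.805%, 0.199% and 0.136% of all genes passed. At an unadjusted p under 0.05, 12 were then higher and 0 lower with FICZ (5.12% and 4.85% of all genes), and 9 higher and 0 lower with tryptamine (3.57% and 3%). For FICZ over tryptamine 3 were higher and 0 lower (3.01% and 2.96%). The 2 comparisons with control share their controls, so their likeness is not a second observation.

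**Figure D4:**
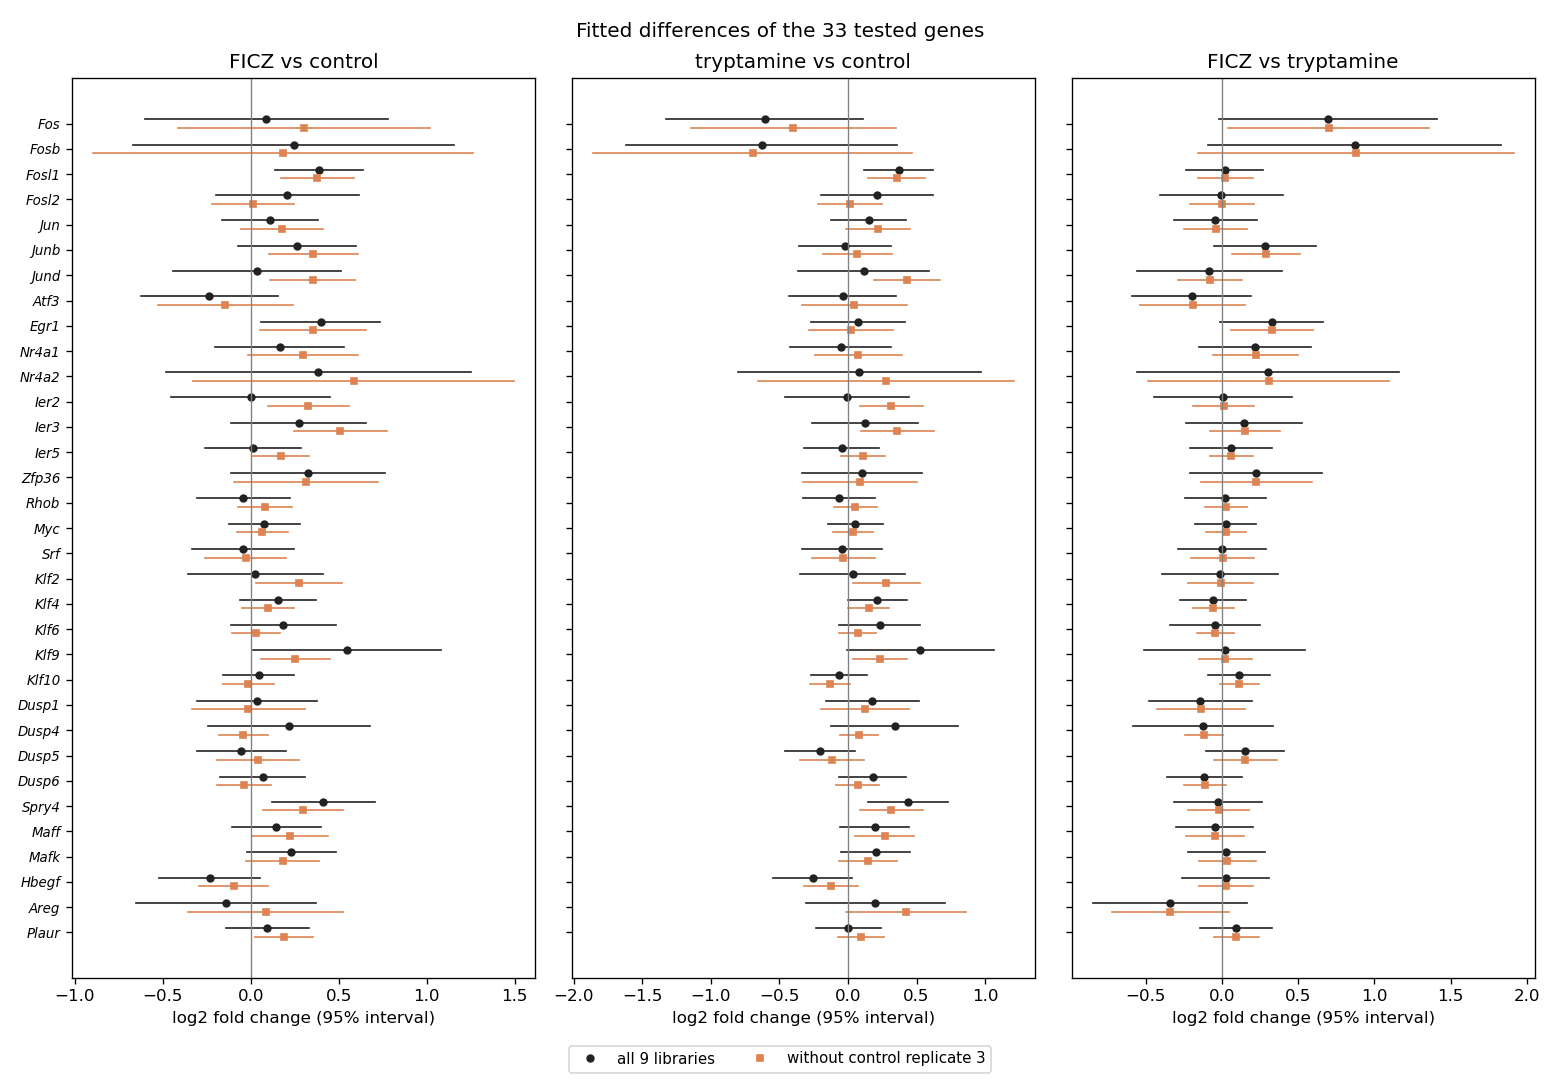
Fitted log2 fold changes with 95% intervals of the 33 tested genes, grouped by role, for FICZ over control, tryptamine over control and FICZ over tryptamine, in the fit to all 9 libraries (dark circles) and without control replicate 3 (orange squares). Without that library the intervals of most genes are narrower, and Jund, Ier2 and Klf2 move to the right in both comparisons with control.

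Non-overlapping libraries were counted as a description. All FICZ libraries lay above all controls for 5 of 33 genes (15.2%), which are Fosl1, Egr1, Klf9, Spry4 and Mafk, and below them for 0, where 8.21% and 7.41% of all genes did so. All tryptamine libraries lay above all controls for 4 genes (12.1%), which are Fosl1, Klf9, Dusp6 and Spry4, and below them for Dusp5 and Hbegf (6.06%), where 5.2% and 4.87% of all genes did so. All FICZ libraries lay above all tryptamine libraries for 8 genes (24.2%), which are Fos, Fosb, Egr1, Ier3, Ier5, Klf10, Dusp5 and Zfp36, and below them for Dusp4, Dusp6 and Areg (9.09%), where 5.46% and 5.85% of all genes did so. Against control replicates 1 and 2 alone, 14 genes lay above with FICZ (42.4%, beside 13.9% of all genes) and 0 below (14.1% of all genes). With tryptamine 12 lay above (36.4%, beside 10.2%) and Klf10, Dusp5 and Hbegf below (9.84% of all genes). Mafk, Dusp4, Dusp5, Dusp6, Fosb, Klf10, Zfp36, Hbegf and Areg were singled out here after their values were seen.

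For most genes the intervals left out a change of more than 1 on the log2 scale, but many did not leave out 0.5. In the comparison of FICZ with control, the 95% interval of 30 of 33 genes lay within 1 on the log2 scale in both directions, the exceptions being Fosb, Klf9 and Nr4a2. For tryptamine the exceptions were Fos, Fosb and Klf9, and for FICZ against tryptamine Fos, Fosb and Nr4a2, with 30 of 33 inside in each. Within 0.5 in both directions lay 16 of 33 intervals for FICZ, 18 for tryptamine and 20 for FICZ against tryptamine. The median half-width of the interval was 0.33 in each of the 3 comparisons, and 0.23, 0.23 and 0.21 without control replicate 3.

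Other genes of the same signalling pathway were counted from a list of 81, which covers the kinases upstream, the partner factors of SRF, CREB and Myc, further feedback inhibitors and further early genes. Of the 75 tested, 0 rose and 0 fell in each of the 3 comparisons, where 0.113% of all genes passed for FICZ against control, 0.00808% for tryptamine against control and 0% for FICZ against tryptamine. The counts were also 0 without control replicate 3. Their median log2 change was 0.04 with FICZ, beside -0.01 over all genes, and 0.07 with tryptamine, beside 0.0040. At an unadjusted p under 0.05, 4 of the 75 were higher and 1 lower with FICZ, where 3.52% and 4.6% of all genes were. With tryptamine 4 were higher and 0 lower, where 2.18% and 2.97% of all genes were, and between FICZ and tryptamine 1 was higher and 1 lower, where 0.703% and 1.03% were. Mxd4, which competes with Myc for its partner Max, stood at 12.2, 10.9 and 11.0 CPM in the FICZ libraries and 8.43, 7.49 and 7.87 CPM in the tryptamine libraries, against 6.16, 8.53 and 7.59 CPM in the control libraries. All FICZ libraries of Mxd4 lay above all others, with a log2 change of 0.61 ± 0.16 (SE, adjusted p of 0.546) and a difference from tryptamine of 0.52 ± 0.16 (SE, adjusted p of 1). Elk1, the ERK-activated partner of serum response factor, stood at 15.3, 14.2 and 17.6 CPM in the FICZ libraries and 15.7, 18.1 and 19.6 CPM in the tryptamine libraries, against 13.9, 10.5 and 11.4 CPM in the control libraries, a log2 change of 0.57 ± 0.16 (SE, adjusted p of 0.741) with tryptamine. Crem, a relative of CREB, had low levels of 2.21, 2.56 and 2.19 CPM in the FICZ libraries and 3.33, 3.94 and 5.74 CPM in the tryptamine libraries, against 3.92, 2.89 and 3.16 CPM in the control libraries, and FICZ differed from tryptamine by -0.90 ± 0.27 (SE, adjusted p of 1). Over control, the kinase Plk3 was fitted at 0.44 ± 0.18 (SE, adjusted p of 0.601) with FICZ, beside 0.40 ± 0.18 with tryptamine. Sgk1 was at 0.21 ± 0.082 (SE, adjusted p of 0.741) with tryptamine, beside 0.16 ± 0.082 with FICZ. Mapk9 was at 0.28 ± 0.12 (SE, adjusted p of 0.741) with tryptamine, beside 0.24 ± 0.12 with FICZ. For FICZ over tryptamine, Pim1 was at -0.34 ± 0.16 (SE, adjusted p of 1). None of these passed.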

How the data were processed

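The authors deposited counts of reads per transcript for each library, 189660 transcripts in 1 table for each pair of groups, per the file headers. Beside the counts the authors deposited their own p-values, adjusted p-values and log2 fold changes, and the submitters' processing notes name DESeq. The sources used here name no aligner, counting rule or build. Neither of the deposited lists of 81 and 22 genes with higher transcripts names a member. Each gene is represented by the transcript with the highest mean count over the 9 libraries, and 928 of 5653 entries naming several loci were assigned through RefSeq identifiers, Junb among them. The 26853 transcripts with no gene held 3.56 to 4.23% of counts and were left out.

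A single edgeR 4.0.16 model (R 4.3.3) was fitted to the 9 libraries together, with filterByExpr, TMM scaling, group as the only term, the quasi-likelihood test and adjustment over all 12374 genes. The script was tested on simulated counts, which held no deviating library such as control replicate 3. SE was taken from the log2 change and the root of its F statistic, and intervals are 95%. Libraries described one by one are those of Fos, Egr1, Myc and each member with an unadjusted p under 0.05 in any comparison with all 9 libraries or without control replicate 3. Mafk, Dusp4, Dusp5, Dusp6 and Hbegf were added after their values were seen. Of the signalling list, genes that passed or had the 3 smallest p in a comparison are named, except 1 that is not reported here. Alternatives used DESeq2 1.42.0 and limma 3.58.1. The members and lists were chosen with earlier results of these data known. Equal replicate numbers did not deviate together (1 of 9 pairs correlated above 0.1), so the replicate block is an alternative.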

Additional observations from a re-analysis of the deposited data

How the results depend on the processing

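Over 17 alternatives, the number of members that passed stayed at 0 for tryptamine against control and for FICZ against tryptamine, and at 0 in 16 of 17 for FICZ against control, where limma's voom with quality weights passed 2, Fosl1 and Ier3. The replicate block passed 0 in each comparison, and for Fosl1 its log2 change with FICZ was 0.38 (adjusted p = 0.627). The signalling list kept 0 throughout. Signs of small values that had not passed turned in places, and the cause was not tested. With FICZ, Ier2 was at 0.0012 with DESeq2 size factors, 0.29 with limma's voom and 0.028 with the replicate block. Ier5 was at -0.0029 and Klf2 at -0.0058 with sums over transcripts. With tryptamine, Ier2 was at 0.31 with limma's voom and 0.033 with the replicate block. Leaving out each library in turn gave log2 values from -0.14 to 0.30 for Fos, -0.18 to 0.35 for Jund, -0.18 to 0.33 for Ier2, -0.070 to 0.17 for Ier5, -0.099 to 0.27 for Klf2 (FICZ against control). Leaving out each library in turn gave log2 values from -0.099 to 0.43 for Jund, -0.013 to 0.22 for Egr1, -0.19 to 0.32 for Ier2, -0.026 to 0.36 for Ier3, -0.089 to 0.28 for Klf2 (tryptamine against control). Leaving out each library in turn gave log2 values from -0.025 to 0.057 for Myc (FICZ against tryptamine). The median over members ran from 0.065 to 0.18 with FICZ and from -0.037 to 0.14 with tryptamine over these fits, the lowest with tryptamine without control replicate 1. Depth limits Fos, Fosb and Nr4a2, with 5 to 56 counts in a library, and Egr2 and Ereg, which were not tested.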
